A study of Homo sapiens with 22 samples.

Results

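The transcripts described here are 10 members of the BCL2 family, the proteins that decide whether the outer membrane of the mitochondrion is breached during apoptosis. They are the pro-survival genes BCL2, BCL2L1 and MCL1, the BH3-only genes BCL2L11, BBC3, PMAIP1, BMF and BID, and the effectors BAX and BAK1. The members were chosen by symbol from a table of 35237 genes, and all 10 were found and passed the low-count filter in every comparison. RNA was sequenced in 22 libraries from 2 established human neuroblastoma cell lines, SK-N-AS and GIMEN, which the labels give as mesenchymal (MES) lines, to compare untreated cells with cells differentiated by PP121 and bufalin. PP121 is an inhibitor of tyrosine kinases and of kinases of the PI3K and mTOR group, and bufalin is a cardiac glycoside from toad venom that blocks the sodium pump.

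SK-N-AS gave 4 groups of 4 libraries. Untreated SK-N-AS grew in DMEM with 10% serum. The S1D4 group had 4 days of 5 µM PP121 in DMEM with 1% serum. S1D4 cells then received 5 µM PP121 with 100 nM bufalin in Neurobasal medium with B27 supplement, for 4 days in the S2D4 group and for 30 days in the S2D30 group. GIMEN gave 2 groups of 3 libraries, untreated in RPMI with 10% serum, and D30 after 30 days of 2.5 µM PP121 with 10 nM bufalin in RPMI with 1% serum. The treated groups therefore differ from untreated cells in drug, medium or serum and time at once, and these cannot be told apart here. Nothing in the labels says that libraries of a group came from separate cultures, so p-values measure the spread between these samples, which may be technical.

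BCL2, BCL-XL (the product of BCL2L1) and MCL1 bind and restrain BAX and BAK. BH3-only proteins fill the groove of the pro-survival proteins, or activate BAX and BAK directly: BIM (BCL2L11) and PUMA (BBC3) bind all the main pro-survival proteins, NOXA (PMAIP1) binds chiefly MCL1, BMF binds BCL2 and BCL-XL, and BID links death receptors to mitochondria once caspase-8 has cut it. Freed BAX and BAK form pores that release cytochrome c. Much of the control over MCL1, NOXA and BIM lies in protein synthesis, phosphorylation and degradation, which RNA counts do not show.

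Total counts per library ran from 16456484 to 37506800. Levels are given as CPM, counts scaled to library size by TMM (the trimmed mean of M-values, which corrects for library composition) over all 22 libraries, and fold changes come from edgeR models fitted within a line. S2D4 replicate 4 stood apart from the other S2D4 libraries, with correlations of 0.967 to 0.969 of log2 CPM where the other 3 correlated at 0.990. Untreated SK-N-AS replicate 4 correlated at 0.977 to 0.982 with the other untreated libraries, which correlated at 0.985 to 0.990. In S1D4, replicates 1 and 2 correlated with replicates 3 and 4 at 0.981 to 0.983, and within these pairs at 0.989 and 0.990. The summed level of 8 mesenchymal markers was 1453 to 1996 CPM in untreated SK-N-AS and 46499 to 48307 CPM in untreated GIMEN. The 8 adrenergic markers summed to 1571 to 1762 CPM in untreated SK-N-AS, which thus carried both kinds, and to 410 to 434 CPM in untreated GIMEN, where PHOX2A and TH were at 0. Of 8 leukocyte markers CD3E was at 0 in untreated SK-N-AS, and their summed 160 to 208 CPM there was almost all PTPRC (177 ± 20.9 CPM, SD, n = 4). In untreated GIMEN the 8 leukocyte markers summed to 1.37 to 2.54 CPM, with SPI1 at 0.

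In GENCODE release 29 (GRCh38), BCL2 lies at chr18:63123346-63320128, BCL2L1 at chr20:31664452-31723989 and MCL1 at chr1:150574551-150579738. BCL2L11 lies at chr2:111119378-111168447, BBC3 at chr19:47220822-47232766, PMAIP1 at chr18:59899948-59904306, BMF at chr15:40087890-40108892 and BID at chr22:17734138-17774770. BAX lies at chr19:48954815-48961798 and BAK1 at chr6:33572547-33580293. Exons of other genes on the opposite strand cover 42.97% of the exon length of BCL2L1 (ABALON), 10.92% of BCL2L11 (MIR4435-2HG) and 8.46% of BMF (BMF-AS1). The values of these 3 genes are uncertain to that extent, since the use of strand in the authors' counting is not given in the sources used here. A further 4.11% of BAK1 is covered by GGNBP1, which had 2 to 21 counts per library, and 7.45% of the 75-base words of BAK1 also occur in other transcripts, chiefly those of its pseudogene BAK1P1.

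RefSeq promoter entries (GRCh38.p14) were found for 9 of the 10 members, and were searched on both strands, over the 250 bases before each start, for 4 motifs: the FOXO motif TGTTTAC, the cAMP response element core TGACGT, the E-box CACGTG and the AP-1 motif TGACTCA. No matches overlap one another in these windows. MCL1 had no entry and was not searched, and BCL2, BCL2L1, BMF and BAK1 held no match. The 5 windows below are shown because they belong to members with a change in level and hold a match, and because their letters let the arrangement be seen. Each runs 5′ to 3′ in the direction of transcription, in lower case with the matches in capitals, and is cut to hold no base of a GENCODE release 29 exon. The windows of BCL2L11 and BID lie inside the GENCODE gene, before RefSeq starts downstream of its first base.
BCL2L11, chr2:111120664-111120913, plus strand: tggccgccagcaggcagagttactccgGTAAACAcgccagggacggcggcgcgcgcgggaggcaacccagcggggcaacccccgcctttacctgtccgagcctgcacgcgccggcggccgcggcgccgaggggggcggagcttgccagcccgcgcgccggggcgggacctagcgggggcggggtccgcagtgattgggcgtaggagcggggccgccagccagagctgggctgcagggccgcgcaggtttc
PMAIP1, chr18:59899746-59899947, plus strand: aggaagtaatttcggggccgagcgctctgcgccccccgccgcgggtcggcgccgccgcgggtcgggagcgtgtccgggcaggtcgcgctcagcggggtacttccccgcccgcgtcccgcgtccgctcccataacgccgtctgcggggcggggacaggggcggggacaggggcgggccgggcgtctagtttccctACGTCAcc
BBC3, chr19:47232767-47232917, minus strand: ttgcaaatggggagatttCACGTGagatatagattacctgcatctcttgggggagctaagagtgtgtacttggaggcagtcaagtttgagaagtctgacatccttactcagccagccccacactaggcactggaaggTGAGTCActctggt
BAX, chr19:48954625-48954814, plus strand: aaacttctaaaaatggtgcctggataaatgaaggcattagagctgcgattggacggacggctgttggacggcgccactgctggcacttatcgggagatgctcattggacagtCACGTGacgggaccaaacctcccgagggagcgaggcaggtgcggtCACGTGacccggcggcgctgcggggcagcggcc
BID, chr22:17774043-17774292, minus strand: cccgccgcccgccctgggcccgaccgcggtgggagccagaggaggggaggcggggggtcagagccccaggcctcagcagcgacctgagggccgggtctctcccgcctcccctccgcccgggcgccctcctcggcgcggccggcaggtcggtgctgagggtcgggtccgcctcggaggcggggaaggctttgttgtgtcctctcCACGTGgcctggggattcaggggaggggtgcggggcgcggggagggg
BCL2L11 holds the FOXO motif, in reverse, 223 bases before the RefSeq start, and 2.98% of 35116 promoters of this length hold one. PMAIP1 holds the cAMP response element core, in reverse, 56 bases before its start (7.10% of promoters). BBC3 holds an E-box 232 bases and an AP-1 motif 113 bases before its start (6.34% and 4.20% of promoters). BID holds an E-box that lies 106 bases before one of its RefSeq starts and 47 bases before another. BAX holds the E-box 4 times, at 138, 93, 45 and 14 bases before its start, of which the first 2 are in the stretch shown. These matches are letters in a window and were not tested as sites.

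MCL1 showed the largest rise of the 10 members in S2D4 and S2D30. It read 239, 237, 241 and 285 CPM in the 4 untreated libraries and 298, 286, 402 and 391 CPM in S1D4. In S2D4 it read 2706, 2770, 2758 and 1910 CPM, and in S2D30 2075, 2291, 2277 and 2109 CPM. Every S2 library lay far above every untreated and S1D4 library, and the lowest S2D4 value came from replicate 4, the library that stands apart. The group means were 251 ± 23.0 CPM untreated, 344 ± 60.7 in S1D4, 2536 ± 418 in S2D4 and 2188 ± 112 in S2D30 (SD, n = 4 each).

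Against untreated cells MCL1 rose 9.89-fold in S2D4 (log2 change 3.31, SE 0.15, edgeR adjusted p = 1.85e-11) and 8.52-fold in S2D30 (log2 change 3.09, SE 0.14, edgeR adjusted p = 1.26e-11). Without S2D4 replicate 4 the S2D4 value was 3.42. The S1D4 rise was 1.35-fold (log2 change 0.43, SE 0.13, edgeR adjusted p = 0.0159), and this call was lost without S1D4 replicate 3 (adjusted p = 0.0626) or 4 (adjusted p = 0.0586), the 2 highest libraries. Between S1D4 and S2D4, a step that adds bufalin, changes the medium and adds time, MCL1 rose 7.32-fold (log2 change 2.87, SE 0.14, edgeR adjusted p = 2.84e-10). S2D30 did not differ from S2D4 beyond the threshold (log2 change -0.21, SE 0.13, edgeR adjusted p = 0.19), but without S2D4 replicate 4 it was called lower (log2 change -0.33, adjusted p = 0.0188).

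BCL2, the founding pro-survival member, went the other way. It read 30.9, 31.1, 30.3 and 45.0 CPM untreated, 26.8, 25.8, 21.1 and 23.1 CPM in S1D4, 12.9, 12.3, 12 and 19.3 CPM in S2D4, and 11.5, 15.5, 16.5 and 11.9 CPM in S2D30. Untreated libraries were highest, S1D4 libraries came next without overlap, and the S2D4 and S2D30 libraries were lower still and overlapped each other. BCL2 fell 2.47-fold in S2D4 (log2 change -1.31, SE 0.17, edgeR adjusted p = 5.84e-06) and 2.54-fold in S2D30 (log2 change -1.35, SE 0.17, edgeR adjusted p = 2.88e-06). The S1D4 fall of 1.44-fold (log2 change -0.53, SE 0.17, edgeR adjusted p = 0.0208) lost its call without untreated replicate 4 (adjusted p = 0.0768), the highest library, and without S1D4 replicate 3 (adjusted p = 0.0666) or 4 (adjusted p = 0.0534). The step from S1D4 to S2D4 was called lower (log2 change -0.78, SE 0.17, edgeR adjusted p = 0.00114). From S2D4 to S2D30 the change was -0.04 (SE 0.17, edgeR adjusted p = 0.872), and without S2D4 replicate 4 it was 0.15 (adjusted p = 0.441).

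BCL2L1, which encodes BCL-XL, changed by at most 1.23-fold in the 5 SK-N-AS comparisons tested. Its group means were 42.1 ± 5.59 CPM untreated, 53 ± 5.65 in S1D4, 47.1 ± 2.66 in S2D4 and 38.7 ± 2.62 in S2D30 (SD, n = 4 each), with overlap between neighbours when ranked by mean. It was called higher in S1D4 (log2 change 0.30, SE 0.10, edgeR adjusted p = 0.0280). That call was lost without untreated replicate 3 (adjusted p = 0.0677) or 4 (adjusted p = 0.0635), and without S1D4 replicate 1 (adjusted p = 0.0812) or 2 (adjusted p = 0.0873). It was not called in S2D4 (log2 change 0.12, edgeR adjusted p = 0.310) or S2D30 (log2 change -0.16, edgeR adjusted p = 0.177) against untreated cells, but without untreated replicate 1 the first was called higher (0.24, adjusted p = 0.0485) and without untreated replicate 4 the second lower (-0.23, adjusted p = 0.0430). From S2D4 to S2D30 it fell 1.22-fold (log2 change -0.28, SE 0.10, edgeR adjusted p = 0.0309), a call lost with upper-quartile scaling (adjusted p = 0.0830), and without S2D4 replicate 2 (adjusted p = 0.0608) or 4 (adjusted p = 0.0578) or S2D30 replicate 1 (adjusted p = 0.0693) or 4 (adjusted p = 0.0910).

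**Figure D1:**
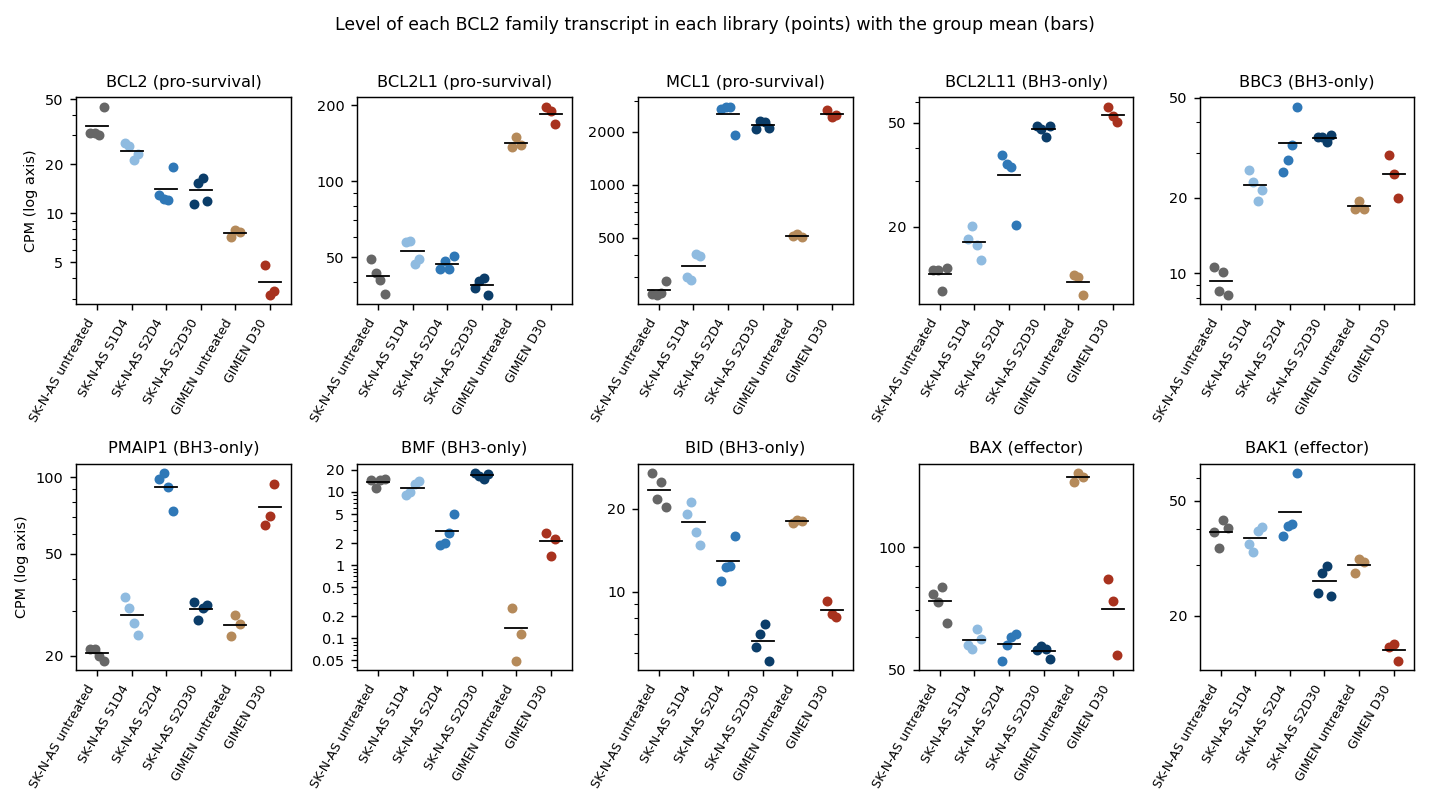
Level of each member in every library as CPM on a log axis, by group, with the group mean as a black bar. MCL1 sits between 1910 and 2770 CPM in the S2D4, S2D30 and GIMEN D30 libraries and at or below 524 CPM elsewhere, and BMF is lowest in untreated GIMEN.

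Among the BH3-only genes, BCL2L11, BBC3 and PMAIP1 rose in both S2 groups, BID fell, and BMF fell in S2D4 and stood near its untreated level in S2D30. BCL2L11, the gene of BIM, read 13.6, 13.7, 11.4 and 13.9 CPM untreated, 18, 20.1, 17.0 and 14.8 CPM in S1D4, 37.7, 34.6, 33.7 and 20.3 CPM in S2D4, and 48.5, 47.3, 44.1 and 48.6 CPM in S2D30. The 4 groups followed each other without overlap in that order. BCL2L11 rose 2.34-fold in S2D4 (log2 change 1.23, SE 0.15, edgeR adjusted p = 3.14e-06) and 3.50-fold in S2D30 (log2 change 1.81, SE 0.16, edgeR adjusted p = 2.15e-08). From S2D4 to S2D30 it rose 1.49-fold (log2 change 0.58, SE 0.15, edgeR adjusted p = 0.00407), and without S2D4 replicate 4, its lowest S2D4 library, by 0.41 on the log2 scale (adjusted p = 0.00201). In S1D4 it missed the threshold (log2 change 0.39, SE 0.15, edgeR adjusted p = 0.0566), but passed it with DESeq2 (adjusted p = 0.0343), with DESeq2 size factors in edgeR (adjusted p = 0.0445), with only those groups in the fit (adjusted p = 0.0185) and without S1D4 replicate 4 (adjusted p = 0.0408).

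BBC3, the gene of PUMA, was already higher in S1D4, before bufalin was added. It read 10.6, 8.52, 10.1 and 8.21 CPM untreated, 25.8, 23.1, 19.4 and 21.4 CPM in S1D4, 25.2, 28.3, 32.3 and 46.0 CPM in S2D4, and 34.9, 34.9, 33.3 and 35.5 CPM in S2D30. No treated library overlapped the untreated ones, and S2D4 replicate 4 was the highest library of all. BBC3 rose 2.35-fold in S1D4 (log2 change 1.23, SE 0.16, edgeR adjusted p = 1.65e-05), the largest change of any member in that group, 3.44-fold in S2D4 (edgeR adjusted p = 6.86e-08) and 3.61-fold in S2D30 (edgeR adjusted p = 2.39e-08). From S1D4 to S2D4 the rise was 0.55 on the log2 scale (SE 0.15, edgeR adjusted p = 0.00665), and 0.34 without S2D4 replicate 4 (adjusted p = 0.0186). S2D30 did not differ from S2D4 beyond the threshold (log2 change 0.07, SE 0.15, edgeR adjusted p = 0.729). Without S2D4 replicate 4 that change was 0.27 (edgeR adjusted p = 0.0595).

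PMAIP1, the gene of NOXA, peaked in S2D4. The values were 21.3, 21.3, 19.9 and 19.1 CPM untreated, 33.8, 30.8, 26.8 and 24.2 CPM in S1D4, 98.3, 104, 91.6 and 73.4 CPM in S2D4, and 32.6, 27.6, 30.8 and 31.4 CPM in S2D30. All S2D4 libraries lay above all others of the line, and S1D4 and S2D30 overlapped each other above the untreated level. PMAIP1 rose 4.39-fold in S2D4 (log2 change 2.13, SE 0.12, edgeR adjusted p = 3.09e-10) and then fell 3.0-fold from S2D4 to S2D30 (log2 change -1.59, SE 0.12, edgeR adjusted p = 1.83e-08). It stayed called higher than untreated in S2D30 (1.46-fold, edgeR adjusted p = 0.000556) and was higher in S1D4 (1.39-fold, edgeR adjusted p = 0.00410).

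BMF, whose protein is held on the cytoskeleton by a dynein light chain, showed the reverse course. It read 14.5, 11.4, 14.4 and 15 CPM untreated, 9.20, 9.98, 12.8 and 13.9 CPM in S1D4, 1.86, 2.01, 2.78 and 5.02 CPM in S2D4, and 18.2, 16.3, 15 and 17.8 CPM in S2D30. All S2D4 libraries lay below all others of the line. BMF fell 4.76-fold in S2D4 against untreated cells (log2 change -2.25, SE 0.25, edgeR adjusted p = 6.37e-07), or by 2.67 on the log2 scale without S2D4 replicate 4. From S2D4 to S2D30 it rose 5.65-fold (log2 change 2.50, SE 0.25, edgeR adjusted p = 4.23e-07). It was not called against untreated cells in S1D4 (log2 change -0.30, SE 0.23, edgeR adjusted p = 0.324) or S2D30 (log2 change 0.25, SE 0.23, edgeR adjusted p = 0.334).

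BID, cut by caspase-8 in its active form, was called lower at each step, from 23.5 ± 3.10 CPM untreated to 17.8 ± 2.84 in S1D4, 12.9 ± 2.15 in S2D4 and 6.63 ± 0.868 in S2D30 (SD, n = 4 each). Against untreated cells it was 1.86-fold lower in S2D4 (edgeR adjusted p = 6.39e-05) and 3.63-fold lower in S2D30 (log2 change -1.86, SE 0.16, edgeR adjusted p = 1.52e-08), where all 4 libraries lay below those of every other SK-N-AS group. From S2D4 to S2D30 it was 1.95-fold lower (edgeR adjusted p = 7.11e-05). The 2 smaller steps were fragile. The S1D4 call (log2 change -0.42, edgeR adjusted p = 0.0306) was lost with no filter on low counts (adjusted p = 0.0643), without untreated replicate 1 (adjusted p = 0.121) or 3 (adjusted p = 0.0773) and without S1D4 replicate 3 (adjusted p = 0.0836) or 4 (adjusted p = 0.104). The call from S1D4 to S2D4 (log2 change -0.47, edgeR adjusted p = 0.0133) was lost without S1D4 replicate 2 (adjusted p = 0.0533).

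The effector members BAX and BAK1 changed by less than 2-fold in every SK-N-AS comparison. BAX, a pore former that is cytosolic in healthy cells, had means of 73.7 ± 6.33 CPM untreated, 59.1 ± 2.88 in S1D4, 57.8 ± 3.88 in S2D4 and 55.6 ± 1.69 in S2D30 (SD, n = 4 each). All treated SK-N-AS libraries lay below all untreated ones, and the treated groups overlapped one another. The fall was 1.27-fold in S1D4 (edgeR adjusted p = 0.00260), 1.31-fold in S2D4 (edgeR adjusted p = 0.000494) and 1.36-fold in S2D30 (log2 change -0.45, SE 0.08, edgeR adjusted p = 0.000103). BAK1, which sits in the outer membrane, was called lower in S2D30 and in neither other treated group of the line: 39.1 ± 3.57 CPM untreated, 37.2 ± 3.45 in S1D4, 45.7 ± 11.3 in S2D4 and 26.3 ± 3.08 in S2D30. Its S2D30 fall was 1.52-fold against untreated cells (log2 change -0.61, SE 0.14, edgeR adjusted p = 0.000979) and 1.74-fold against S2D4 (edgeR adjusted p = 0.000164). S2D4 replicate 4 read 62.4 CPM where the other 3 read 37.8 to 41.7 CPM. The S2D4 change against untreated cells was 0.19 (edgeR adjusted p = 0.240) with that library and 0.00 without it (adjusted p = 0.983). Against S1D4 BAK1 was not called in S2D4 (0.29, edgeR adjusted p = 0.0874), but was called without S2D4 replicate 1 (0.37, adjusted p = 0.0414), while without S2D4 replicate 4 the change was 0.10 (adjusted p = 0.413).

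In counts, 4 of the 10 members were higher and 3 lower in S1D4 than untreated, beside 17.6% and 22.4% of the 15810 genes tested. In S2D4, 4 were higher and 4 lower, beside 30.9% and 32.2% of genes, and in S2D30 again 4 and 4, beside 33.8% and 36.5%. From S1D4 to S2D4, 4 rose and 3 fell, beside 28.3% and 26.8% of genes, and from S2D4 to S2D30, 2 rose and 4 fell, beside 24.4% and 26.9%. The member counts were not tested against these shares, and with 10 genes they are not read as setting the family apart. The median member change against untreated, 0.10 in S1D4, 0.16 in S2D4 and 0.04 in S2D30 on the log2 scale, stood beside -0.01, -0.02 and -0.03 for all genes tested. The 3 treated groups share the same untreated libraries, so their changes against untreated are given side by side and are not independent. Without S1D4 replicate 3 or 4, 1 member in place of 3 was called lower in S1D4.

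The proliferation markers MKI67, TOP2A, CCNB1 and CDK1 moved with these groups: their summed level was 556 to 750 CPM untreated, 121 to 254 in S1D4, 70.8 to 105 in S2D4 and 3.43 to 4.94 in S2D30, with none at 0. The 8 adrenergic markers went from 1571 to 1762 CPM untreated to 178 to 226 CPM in S2D30, and the 8 mesenchymal markers from 1453 to 1996 CPM to 3013 to 3729 CPM, none of either list being at 0. In S2D30, 7 of the adrenergic markers were called lower and none higher, but of the mesenchymal ones 5 were higher and 3 lower, and VIM made up 937 ± 243 CPM (SD, n = 4) of their untreated sum. The part of cell division or cell state in the member changes was not tested. In bulk RNA, fewer cells with a transcript and less of it per cell cannot be told apart.

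**Figure D2:**
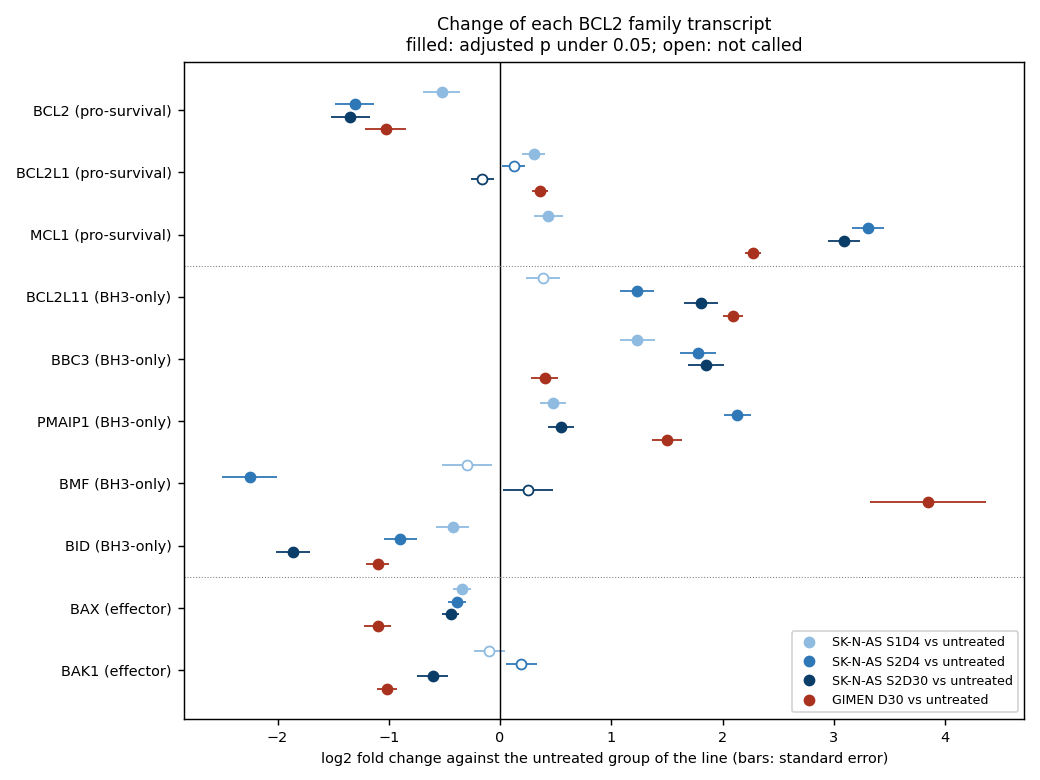
Log2 fold change of each member against the untreated group of its line, with its standard error; filled points have an edgeR adjusted p under 0.05. MCL1 lies at 3.31 in S2D4, 3.09 in S2D30 and 2.27 in GIMEN D30, while BMF falls by 2.25 in S2D4. The BMF point at 3.85 in GIMEN D30 rests on 8 untreated counts. BMF passed the low-count filter in GIMEN only through D30 and so had to differ.

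GIMEN cells after 30 days also had more MCL1, BCL2L11 and PMAIP1 and less BCL2 and BID. All 10 members were called, 6 higher and 4 lower, beside 35.5% higher and 36.0% lower of the 13517 genes tested. BMF is among the 6 but passed the low-count filter only through D30, where it is high, and so had to differ; of the other 9 members 5 were higher and 4 lower, with a median change of 0.36 beside 0.02 for all genes. For each member, BMF included, the 3 untreated and 3 treated libraries did not overlap. The share of all genes without overlap was not counted, so this is not read as a trait of the family.

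MCL1 read 514, 524 and 504 CPM in untreated GIMEN and 2671, 2429 and 2491 CPM in D30, a 4.83-fold rise (log2 change 2.27, SE 0.07, edgeR adjusted p = 2.08e-10). BCL2L1 rose from 136, 150 and 139 CPM to 197, 190 and 168 CPM (1.28-fold, SE 0.07 on the log2 scale, edgeR adjusted p = 0.000828). BCL2 was scarce in this line and fell further, from 7.17, 7.85 and 7.74 CPM to 4.81, 3.17 and 3.34 CPM (2.04-fold, log2 change -1.03, SE 0.18, edgeR adjusted p = 0.000386).

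BCL2L11 showed the clearest rise of the BH3-only genes, from 13.1, 12.9 and 11 CPM to 57.5, 53.1 and 50.3 CPM (4.27-fold, log2 change 2.09, SE 0.09, edgeR adjusted p = 3.35e-09). PMAIP1 rose from 24.0, 28.9 and 26.5 CPM to 64.7, 70.3 and 93.9 CPM (2.83-fold, log2 change 1.5, SE 0.13, edgeR adjusted p = 1.26e-06). BBC3 rose less, from 18, 19.4 and 18 CPM to 29.5, 24.9 and 20.0 CPM (1.32-fold, log2 change 0.40, SE 0.13, edgeR adjusted p = 0.0136). The BBC3 call was lost without untreated replicate 1 (adjusted p = 0.0520), and the change was 0.26 without D30 replicate 1 (adjusted p = 0.0468), the highest library. BMF was near the floor in untreated GIMEN, with 5, 1 and 2 counts, and 2.76, 1.33 and 2.31 CPM were measured in D30. The summed counts, 104 in D30 and 8 untreated, gave a ratio of 15.4 per library size (95% exact interval 7.55 to 36.7, counting error only). BID fell from 18 ± 0.266 to 8.56 ± 0.630 CPM (SD, n = 3 each; 2.14-fold lower, log2 change -1.10, SE 0.10, edgeR adjusted p = 2.08e-06).

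Both effector members fell in GIMEN. BAX went from 145, 152 and 149 CPM to 83.6, 73.9 and 54.2 CPM (2.15-fold lower, log2 change -1.10, SE 0.12, edgeR adjusted p = 6.57e-06). BAK1 went from 28.1, 31.4 and 30.7 CPM to 15.6, 16 and 13.9 CPM (2.02-fold lower, log2 change -1.01, SE 0.09, edgeR adjusted p = 1.26e-06). D30 replicate 3 held the lowest BAX and the highest PMAIP1 of its group. The summed proliferation markers went from 1080 to 1096 CPM untreated to 15.5 to 19.7 CPM in D30, and the mesenchymal markers from 46499 to 48307 CPM to 21570 to 24363 CPM, with none at 0; the part of either in these changes was not tested.

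The change over 30 days differed between the lines for 8 of the 10 members. This was tested as the line-by-treatment term of the fit to the 14 untreated and 30-day libraries. The difference (SK-N-AS change minus GIMEN change) was higher for 4 and lower for 4, beside 24.5% and 25.2% of the 16246 genes tested. BBC3 rose more in SK-N-AS by 1.43 on the log2 scale (SE 0.18, edgeR adjusted p = 5.84e-06) and MCL1 by 0.80 (SE 0.12, edgeR adjusted p = 4.18e-05). BAX fell less in SK-N-AS, by a difference of 0.64 (SE 0.16, edgeR adjusted p = 0.00358), and BAK1 by 0.39 (SE 0.15, edgeR adjusted p = 0.0412). The BAK1 call did not hold with upper-quartile scaling (adjusted p = 0.0584), with no filter on low counts (0.0850), with all 22 libraries in 1 model (0.0977), or without any 1 of 7 libraries: untreated SK-N-AS replicate 2, S2D30 replicates 2 and 3, untreated GIMEN replicates 2 and 3, and D30 replicates 1 and 3 (adjusted p = 0.0517 to 0.0986).

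On the lower side, the difference was -3.63 for BMF (SE 0.46, edgeR adjusted p = 5.42e-06), which rests on the 8 counts of untreated GIMEN, -0.97 for PMAIP1 (SE 0.17, edgeR adjusted p = 0.000179), -0.78 for BID (SE 0.19, edgeR adjusted p = 0.00260) and -0.54 for BCL2L1 (SE 0.15, edgeR adjusted p = 0.00661). BCL2 (-0.33, SE 0.25, edgeR adjusted p = 0.296) and BCL2L11 (-0.31, SE 0.13, edgeR adjusted p = 0.0695) missed the threshold, and BCL2L11 passed it with upper-quartile scaling (adjusted p = 0.0394) and without untreated SK-N-AS replicate 3 (adjusted p = 0.0266). The lines had different doses, media and serum over the 30 days, and only S2D30 cells had 4 days of PP121 alone before them. Line and regimen therefore cannot be told apart.

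Before treatment the lines already differed in 9 of the 10 members, a comparison that cannot be told apart from the basal medium. SK-N-AS was higher in 4 and lower in 5, beside 38.6% and 35.3% of 16246 genes. SK-N-AS had 4.46-fold more BCL2 (log2 difference 2.16, SE 0.17, edgeR adjusted p = 6.23e-09) and GIMEN 3.40-fold more BCL2L1 (log2 difference -1.77, SE 0.10, edgeR adjusted p = 1.12e-10). GIMEN also had 2.08-fold more MCL1 (edgeR adjusted p = 7.30e-09), 2.04-fold more BAX (edgeR adjusted p = 3.42e-07) and 1.99-fold more BBC3 (edgeR adjusted p = 2.58e-06). BMF had 261 to 586 counts per library in untreated SK-N-AS and 1 to 5 in untreated GIMEN, so the size of its difference rests on those few counts. It is among the 4 higher members, and untreated GIMEN was the only group of that fit below the minimum count.

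BAK1 was 1.29-fold higher in untreated SK-N-AS (edgeR adjusted p = 0.00485), BID 1.29-fold higher (edgeR adjusted p = 0.0157) and PMAIP1 1.31-fold lower (edgeR adjusted p = 0.00863). The BID call was lost without SK-N-AS replicate 1 (adjusted p = 0.0545) and without GIMEN replicate 1 (adjusted p = 0.0616) or 3 (adjusted p = 0.0514). Upper-quartile scaling moved the median difference of all genes between the untreated lines by 0.15, took PMAIP1 below the threshold (adjusted p = 0.0889) and brought BCL2L11 past it (log2 difference 0.23, adjusted p = 0.0438). With TMM BCL2L11 did not differ beyond its spread (13.1 ± 1.19 and 12.3 ± 1.17 CPM, edgeR adjusted p = 0.486).

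Across the 6 groups, ranked by mean CPM, BCL2 ran from untreated SK-N-AS through S1D4, S2D4 and S2D30 to untreated GIMEN and D30, with overlap between S2D4 and S2D30 alone. BCL2L1 was highest in D30, then untreated GIMEN, and the 4 SK-N-AS groups lay below, where neighbours by rank overlapped but S2D30 lay below S1D4 and S2D4. For MCL1, S2D4 was at the top and overlapped both D30 and S2D30, which did not overlap each other. Untreated GIMEN, S1D4 and untreated SK-N-AS followed without overlap. BCL2L11 ran down from D30 through S2D30, S2D4 and S1D4 to the untreated groups of the lines, which overlapped. BMF was higher in all SK-N-AS groups but S2D4 than in either GIMEN group.

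Set on exon length, MCL1 was the most abundant of the 3 pro-survival members in every group. Its level per kilobase of exon was 57.3 ± 5.27 CPM per kb in untreated SK-N-AS, against 12.7 ± 1.69 for BCL2L1 and 2.92 ± 0.604 for BCL2 (SD, n = 4). Its share of the summed level of these 3 members was 78.5% ± 2.48 untreated, 81.0% ± 4.33 in S1D4, 97.3% ± 0.695 in S2D4 and 97.5% ± 0.0953 in S2D30 (SD, n = 4 each). In GIMEN it was 73.0% ± 0.760 untreated and 91.1% ± 0.597 in D30 (SD, n = 3 each), with BCL2L1 at 26.6% ± 0.749 and then 8.80% ± 0.597. BCL2 made up 3.97% ± 0.547 of this sum in untreated SK-N-AS, 0.228% ± 0.0303 in S2D30 and 0.0502% ± 0.00936 in GIMEN D30. The sum leaves out BCL2L2, also pro-survival, which read 92.4 CPM in S2D30 where BCL2L1 read 38.7 CPM. With the longest coding transcript as the length, a choice added after the data were seen, the MCL1 share was 75.4% untreated and 97.1% in S2D30.

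Of the 5 BH3-only members, PMAIP1 was the largest per kilobase of exon in every group by mean share. It held 41.8% ± 2.17 of their summed level in untreated SK-N-AS, 68.6% ± 6.14 in S2D4 and 37.7% ± 1.72 in S2D30. BH3-only genes outside the members, such as HRK, are not in this sum. BCL2L11 held 9.05% ± 1.08, 7.90% ± 1.64 and 19.5% ± 0.650 in the same groups, and BBC3 13.4% ± 0.952, 17.6% ± 6.05 and 30.1% ± 0.956. Between untreated and S2D30 the BID share went from 24.1% ± 1.80 to 4.13% ± 0.660. With the longest coding transcript as the length, BBC3 was the largest in S2D30 (37.9% ± 1.00, against 31.5% ± 1.59 for PMAIP1), and PMAIP1 in the other 5 groups. In GIMEN the PMAIP1 share was 50.2% ± 1.99 untreated and 64.8% ± 6.97 in D30. Of the summed level of BAX and BAK1, BAX made up 61.7% ± 2.78 in untreated SK-N-AS, 64.4% ± 2.25 in S2D30, 80.9% ± 0.545 in untreated GIMEN and 79.6% ± 2.63 in D30. With the longest coding transcript as the length, these BAX shares were 75.4%, 77.5%, 89.0% and 88.1%, in the same order of groups. BOK, a BAX-like effector, is not in this sum. It read 26.0 CPM in untreated SK-N-AS, 2.15 CPM in S2D30 and 58.2 CPM in untreated GIMEN.

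**Figure D3:**
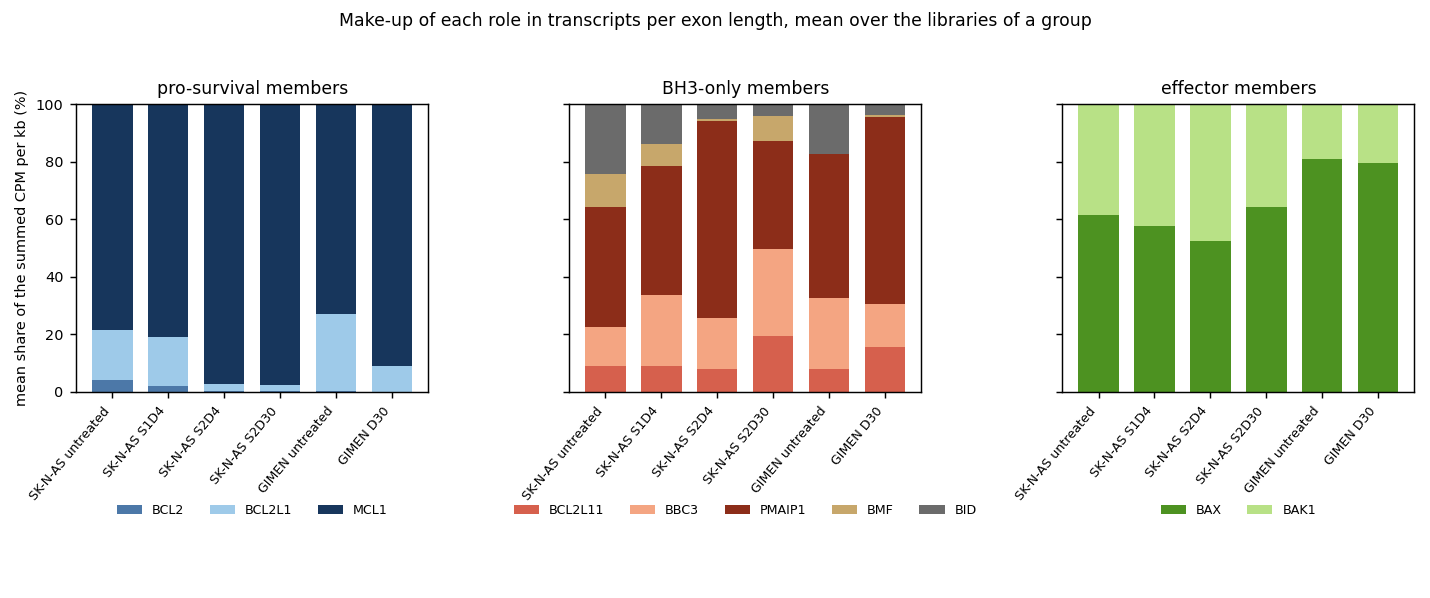
Mean share of each member in the summed CPM per kilobase of exon of the members of its role, by group, in percent. MCL1 fills 97.3% and 97.5% of the pro-survival bar in S2D4 and S2D30, and PMAIP1 fills 68.6% of the BH3-only bar in S2D4.

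Ratios between partners within a library do not depend on scaling and are given as descriptions. The log2 ratio of BCL2L11 to MCL1 counts differed from untreated by a mean of -2.09 in S2D4 and -1.28 in S2D30, and by -0.04 in S1D4 and -0.17 in GIMEN D30. The ratio of PMAIP1 to MCL1 stood at -1.17 in S2D4, -2.55 in S2D30 and -0.79 in GIMEN D30 from untreated. So MCL1 counts grew more than those of either BH3-only gene in the S2 groups, and the libraries of these groups did not overlap the untreated ones in either ratio. BBC3 against BCL2L1 went the other way in SK-N-AS, by 0.93 in S1D4, 1.62 in S2D4 and 2.01 in S2D30, and by 0.03 in GIMEN D30. BMF against BCL2L1 differed from untreated by -0.62 in S1D4, -2.51 in S2D4 and 0.40 in S2D30. In S1D4 and S2D30 its libraries overlapped the untreated ones. Its difference of 3.47 in GIMEN D30 rests on the 8 BMF counts of untreated GIMEN. The BAX to BCL2 ratio was higher by 0.94 in S2D4 and 0.90 in S2D30, since BCL2 fell more than BAX, and differed by -0.07 in GIMEN D30.

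**Figure D4:**
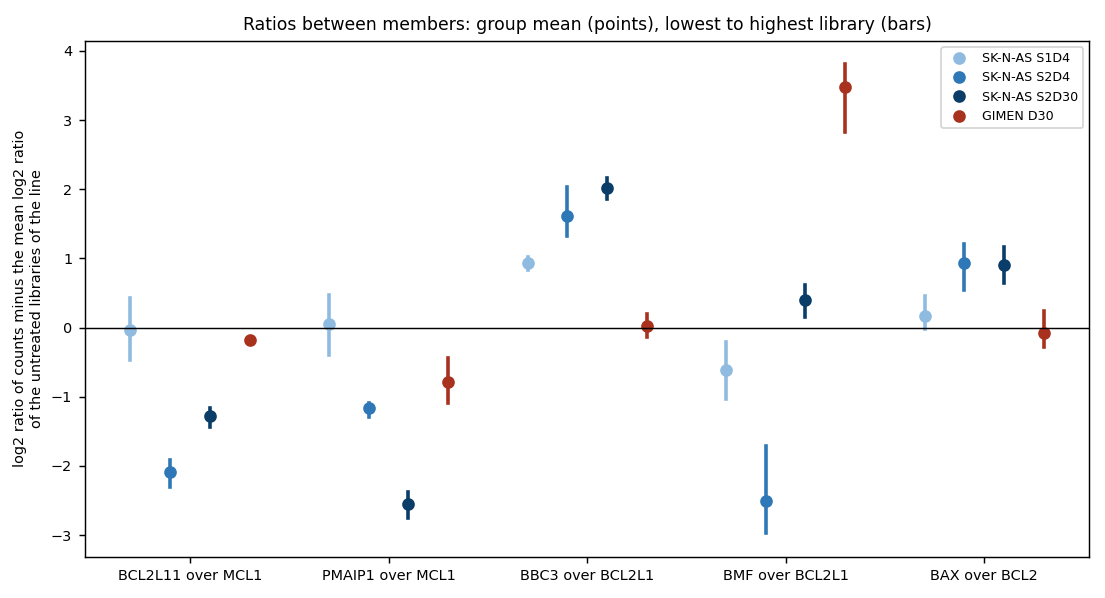
Log2 ratio of counts between paired members, less the mean log2 ratio of the untreated libraries of the line; points are group means and bars run from the lowest to the highest library. PMAIP1 over MCL1 lies at -2.55 in S2D30, and BBC3 over BCL2L1 at 2.01 in S2D30 and 0.03 in GIMEN D30.

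The genes whose log2 CPM followed each member most closely over the 16 SK-N-AS libraries, among 10120 genes, were as follows in Pearson's r. AKAP12 (0.997), NPTX1 (0.990) and STT3A (0.989) were nearest to MCL1, and CPE (0.953), INSRR (0.953) and PTPN9 (0.952) to BCL2. CXCL5 (0.990), MMP3 (0.987) and EREG (0.985) were nearest to BCL2L11, and CLIP2 (0.981), MBOAT7 (0.980) and EMC10 (0.977) to BBC3. For PMAIP1 they were WDR35 (0.968) and FRMD4A (0.967), for BMF PFKM (0.966), TYRO3 (0.962) and PELI3 (0.96), and for BID B4GALT2 (0.989), TAF11 (0.986) and ZWINT (0.985). BCL2L1 had MTMR14 (0.911), ZNF408 (0.893) and ZYX (0.892), BAX had ACAT1 (0.935), MRPS24 (0.933) and RPS23 (0.921), and BAK1 had PEX26 (0.946), GALNT2 (0.945) and C10orf2 (0.941). The points share 4 groups and their libraries, so likeness here is mostly a like order of the groups.

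The counts of other pathway genes that follow are to be read against the shares of all genes called: 17.6% higher and 22.4% lower in S1D4, 30.9% and 32.2% in S2D4, 33.8% and 36.5% in S2D30, and 35.5% and 36.0% in GIMEN D30. Of 9 further BCL2 family genes, 7 were tested in SK-N-AS. In S2D4, 2 rose and 4 fell against untreated (median log2 change -0.90, all genes -0.02), and in S2D30, 3 rose and 2 fell (median -0.13, all genes -0.03). BCL2A1, a pro-survival gene that NF-kappaB drives, was at 0 counts in all 4 untreated libraries and at 113 to 202 counts in S2D30, at least 65.2-fold higher against a floor of 3 counts per library; the median does not depend on its bound. In SK-N-AS BCL2A1 passed the filter only through treated groups and so had to differ, and it is among the 3 that rose in S2D30. In GIMEN it had 1 to 2 counts per library untreated and 22 to 62 in D30, and passed the filter there only through D30, so that it had to differ. BCL2L2, the pro-survival BCL-w, was 2.88-fold higher in S2D30 (31.3 to 92.4 CPM, edgeR adjusted p = 3.10e-08). BOK, a BAX-like effector, was 12.4-fold lower (26.0 to 2.15 CPM, edgeR adjusted p = 5.45e-10). HRK, a neuronal BH3-only gene, was 4.14-fold higher in S2D30 than in S2D4 (edgeR adjusted p = 3.49e-05), and in untreated cells had 168 to 365 counts per library in SK-N-AS and 0 to 2 in GIMEN. In GIMEN D30, 5 of the 9 were tested, 2 rose, BCL2A1 among them, and 1 fell.

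Downstream of the family, all 12 genes of the caspase cascade and its inhibitors were tested. In S2D30, 4 rose and 7 fell against untreated (median -0.35, all genes -0.03), and in GIMEN D30, 5 rose and 6 fell (median -0.28, all genes 0.02). BIRC3 (cIAP2), which marks signalling proteins with ubiquitin, rose from 1.07 to 179 CPM in S2D30 (161-fold, edgeR adjusted p = 5.79e-10) and 4.98-fold in GIMEN D30 (edgeR adjusted p = 1.07e-06). XIAP, a direct caspase inhibitor, rose 4.01-fold in S2D30 (edgeR adjusted p = 2.10e-09). BIRC5 (survivin), also a mitotic protein, fell 316-fold in S2D30 (156 to 0.503 CPM, edgeR adjusted p = 1.85e-12) and 135-fold in GIMEN D30 (edgeR adjusted p = 2.74e-12). CASP6, an executioner caspase, fell 3.55-fold in S2D30 (edgeR adjusted p = 3.94e-08) and 2.03-fold in GIMEN D30 (edgeR adjusted p = 2.11e-05). CYCS, cytochrome c itself, fell 2.59-fold in GIMEN D30 (edgeR adjusted p = 3.98e-09).

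In the death receptor branch that leads to BID, 5 of 10 genes rose and none fell in S2D30 (median 0.30, all genes -0.03), and 5 of 9 tested rose and 2 fell in GIMEN D30 (median 0.45, all genes 0.02). TNFRSF10B, a TRAIL receptor, rose from 64.3 to 238 CPM in S2D30 (3.61-fold, edgeR adjusted p = 1.04e-09). CFLAR (FLIP), which blocks caspase-8, rose 3.79-fold (edgeR adjusted p = 3.30e-10). CASP10 rose 3.12-fold in GIMEN D30 (edgeR adjusted p = 1.00e-05). Among 10 partners and turnover genes, 4 rose and 3 fell in S2D30 (median -0.12, all genes -0.03), and 5 rose and 3 fell in GIMEN D30 (median 0.51, all genes 0.02). DYNLL1, a dynein light chain, fell 2.26-fold (edgeR adjusted p = 5.97e-07) and TPT1, the gene of the MCL1 partner TCTP, rose 2.02-fold (edgeR adjusted p = 3.56e-06) in S2D30.

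Of 11 transcription factors known to act on BH3-only genes, 9 were tested in each line. In S1D4, 4 rose and 1 fell (median 0.33, all genes -0.01), with FOXO1 at 2.67-fold (edgeR adjusted p = 4.70e-05), JUN at 2.47-fold (edgeR adjusted p = 5.96e-06) and ATF3 at 2.30-fold (edgeR adjusted p = 0.000870) higher. In S2D4, 5 rose and 2 fell (median 0.55, all genes -0.02), with JUN, a subunit of AP-1, at 10.9-fold (35.4 to 396 CPM, edgeR adjusted p = 3.85e-11) and FOXO1 at 4.45-fold (edgeR adjusted p = 1.43e-07). DDIT3 (CHOP), a factor of the endoplasmic reticulum stress response, rose 5.40-fold in S2D4 (edgeR adjusted p = 1.06e-09) and 21.6-fold in S2D30 (edgeR adjusted p = 1.02e-12). In S2D30, 4 rose and 3 fell (median 0.09, all genes -0.03), with E2F1 24.7-fold lower (edgeR adjusted p = 1.67e-10).

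In GIMEN D30, 6 of these factors rose and 3 fell (median 0.65, all genes 0.02). FOXO1 rose 7.71-fold (2.38 to 18.7 CPM, edgeR adjusted p = 9.53e-09), DDIT3 5.05-fold (edgeR adjusted p = 8.84e-09) and ATF3 4.27-fold (edgeR adjusted p = 5.95e-05), and E2F1 fell 8.17-fold (edgeR adjusted p = 1.74e-10). JUN was 12.5-fold lower in untreated SK-N-AS than in untreated GIMEN (edgeR adjusted p = 6.48e-14).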

How the data were processed

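RNA-seq of 22 libraries was used. Per the labels' protocols, total RNA was DNase-treated, a company prepared the libraries and they were sequenced paired-end. The authors deposited 1 table of raw read counts per gene, without normalization; 0 sample columns were left unmapped. The aligner, counting tool, build, annotation and use of strand are not given in the sources used here.

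The tests were edgeR's quasi-likelihood tests (edgeR 4.0.16, R 4.3.3) after filterByExpr (minimum count 10, minimum total 15) and TMM scaling, with Benjamini-Hochberg adjustment over all genes tested and a threshold of 0.05. The model of 16 SK-N-AS libraries held 15810 genes, that of 6 GIMEN libraries 13517, and that of the 14 untreated and 30-day libraries, for the untreated lines and the interaction, 16246. The scripts were tested on simulated data. The prior count was 2 for log2 CPM in correlations. Lengths came from GENCODE release 29. The labels name no molecular identifiers, so counting intervals cover counting error only.

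The members and gene lists were chosen with earlier results of these data known. All 10 members are named; genes of other lists are named with an adjusted p under 0.05, a log2 change of at least 1, a mean of at least 1 CPM and no overlap, at most 4 per list and comparison. A few genes that these rules name are not reported here. Alternatives were DESeq2 1.42.0, its size factors, upper-quartile scaling, other filters, a replicate block, other sets of libraries, a term for replicates 3 and 4, and leaving out each library. Replicate pairs differed by at least 2.72 in chi-square per gene, so no library was counted as a copy.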

Additional observations from a re-analysis of the deposited data

Results flagged for a closer look

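Of 40 sets of 4 SK-N-AS libraries (a member in a group), 6 held a library whose gap to its nearest neighbour, over the whole range, was above Dixon's critical value; chance flags about 5% of such sets. Replicate 4 of S2D4 gave 3 of the 6: BCL2 was high there (0.872), MCL1 low (0.926) and BAK1 high (0.843). In untreated SK-N-AS, replicate 4 was high for BCL2 (0.944) and for MCL1 (0.907), and replicate 3 was low for BCL2L11 (0.907).

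The 30-day change differed between the lines in the interaction test for 8 members. As SK-N-AS minus GIMEN on the log2 scale, the difference was 1.43 for BBC3, 0.80 for MCL1, 0.64 for BAX and 0.39 for BAK1. It was -3.63 for BMF, -0.97 for PMAIP1, -0.78 for BID and -0.54 for BCL2L1. The BMF value rests on the 8 counts of untreated GIMEN, and the BAK1 call was lost under several alternatives. Doses, media and serum differed between the lines, and only S2D30 cells had 4 days of PP121 alone first, so line and regimen cannot be told apart.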

How the results depend on the processing

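Of 80 values (10 members in 8 comparisons), 59 kept their sign and their side of the threshold under every alternative run and 21 did not under at least 1. Of 1300 alternative values, 36 fell short of the threshold that the value had passed, 13 newly passed it and 8 changed sign, none of them for a called value. The number of members called lower in S1D4, 3, ran from 1 to 3 when 1 library was left out. Signs changed for values near 0: leaving out 1 library, BAX from S1D4 to S2D4 ran from -0.068 to 0.00273 (main -0.04), BCL2 from S2D4 to S2D30 from -0.14 to 0.15 (main -0.04; 0.029 with upper-quartile scaling), BBC3 from S2D4 to S2D30 from -0.043 to 0.27 (main 0.07), and BCL2L11 between the untreated lines from -0.014 to 0.14 (main 0.08); the cause was not tested. Same-numbered libraries correlated in their deviations at 0.044 to 0.29 in S1D4 and untreated SK-N-AS, where 3 of 4 matched their own number best, a hint from the data and not the design. In the other SK-N-AS comparisons r ran from -0.10 to 0.10 and in GIMEN from -0.02 to 0.01, and in no comparison was every pair above 0.1, so the numbers were not taken as a pairing. A replicate block took BCL2L11 in S1D4 past the threshold (0.38, adjusted p = 0.0497), took the line difference of BAK1 short of it (0.39, adjusted p = 0.0521) and changed no other member's call. A term that set replicates 3 and 4 of untreated SK-N-AS and S1D4 apart changed none. Of 120 member levels under other scalings, 6 moved by more than 1 SD, all in untreated GIMEN with upper-quartile factors. Values of BMF in untreated GIMEN were limited by low counts, at 1 to 5 per library.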
